A study of Mus musculus with 8 samples.

Results

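MHC class II high macrophages of the mouse heart were taken as barcodes that carried the macrophage complement genes C1qa, C1qb and C1qc and at least 2% of their unique molecular identifiers (UMIs, each standing for 1 captured mRNA molecule) from the 4 MHC class II genes Cd74, H2-Aa, H2-Ab1 and H2-Eb1. A member had at least 200 genes, at most 30% mitochondrial UMIs and at least 0.2% of UMIs from C1q genes. It stayed below limits on Lyve1, Folr2 and Timd4 (0.1%), on the interferon-induced genes Isg15, Ifit2 and Ifit3 (0.15%), on Lpl and Gdf15 (0.1%), on S100a8 and S100a9 (1%) and on Dcn and Col3a1 (0.15%), and had at most 1 UMI of Cd79a and Cd3e. A total of 1475 barcodes of 20159 met the rule, 1291 of 11620 in the sham library and 184 of 8539 in the ischemia–reperfusion (IR) library. Because the rule used measured levels, every level of a gene in the rule is given as a description.

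The libraries came from left ventricles of 10- to 12-week-old male C57BL/6 mice, with tissue of 3 hearts pooled for a sample, after ligation of the left anterior descending artery for 30 min and reperfusion (IR) or after a sham operation. Cells were dissociated enzymatically and sequenced by 10× Genomics 3′ chemistry, and the protocol describes no sort. The labels record the sham arm as 0 h and the IR arm as 6 h, while the protocol gives 6 h after surgery for both, and which holds for the sham arm could not be settled. Each arm has 4 listed samples but 1 count matrix whose barcodes carry no sample name, so each condition counted as 1 library and no difference between conditions could be tested.

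MHC class II molecules present peptides from engulfed material to CD4+ T cells. Cd74, the invariant chain, fills the groove of the new molecule until H2-DM exchanges its remnant for peptide, cathepsins cut both the chain and the cargo, and Ciita is the master transcriptional activator of these genes. In the resting heart, MHC class II high cells form one of the main macrophage populations beside Lyve1+ resident macrophages, and they hold both CCR2+ cells replaced from blood monocytes and CCR2− cells.

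The promoters of class II genes share the X and Y boxes at which the RFX complex, CREB, NF-Y and Ciita assemble, and they are shown because the class II genes and the H2-DM genes were measured together in these cells. The 150 bases before the RefSeq transcription start (GRCm38.p6, the assembly of mm10) are printed for the α chain gene H2-Aa (chr17:34287824-34287973, minus strand), the β chain gene H2-Eb1 (chr17:34305717-34305866, plus strand) and the peptide-exchange gene H2-DMb1 (chr17:34153041-34153190, plus strand). Capitals mark the Y box core GATTGG, or its reverse complement CCAATC, and the run TGATGATG of the X box region.

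H2-Aa: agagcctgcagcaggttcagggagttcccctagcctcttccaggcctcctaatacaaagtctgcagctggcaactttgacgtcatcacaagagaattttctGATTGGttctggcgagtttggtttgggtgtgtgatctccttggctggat

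H2-Eb1: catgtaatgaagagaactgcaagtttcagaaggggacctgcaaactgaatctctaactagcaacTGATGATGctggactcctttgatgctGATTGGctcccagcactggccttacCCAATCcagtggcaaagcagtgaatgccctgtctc

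H2-DMb1: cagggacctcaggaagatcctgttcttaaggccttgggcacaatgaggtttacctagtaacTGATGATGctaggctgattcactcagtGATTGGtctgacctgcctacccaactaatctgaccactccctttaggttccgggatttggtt

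Searched on both strands, GATTGG occurred in 10.9% of the 32851 RefSeq promoters of this length, TGATGATG in 0.761% and both in 0.0457%, which was 15 promoters. H2-Eb1 and H2-DMb1 held both motifs, and H2-Aa, H2-DMb2, H2-Oa and H2-Ob held GATTGG without TGATGATG. Variants of these letters were not searched, so a promoter without TGATGATG may still hold an X box. Neither run of letters was found in the windows of the 2 RefSeq starts of H2-DMa. H2-Ab1 and Ciita were not matched in the promoter table. In the GENCODE annotation of GRCm38 H2-DMa spans chr17:34119541-34139101 and H2-DMb1 chr17:34153072-34160230, Ciita lies at chr16:10480059-10528418, Ccr2 at chr9:124101950-124113557 and Mertk at chr2:128698956-128802894, all protein-coding on the plus strand.

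MHC class II high macrophages were the largest class of C1q macrophages in the sham library and a smaller one in the IR library. C1q macrophages, defined by the C1q, neutrophil, fibroblast and lymphocyte limits alone, numbered 3368 in sham and 1034 in IR. MHC class II high cells made up 38.3% of them in sham (exact binomial 95% interval 36.7 to 40.0) and 17.8% in IR (15.5 to 20.3). Of all barcodes that passed the gene and mitochondrial limits they were 11.3% and 2.23%. These intervals, like all intervals below, cover counting error only and hold no variation between mice.

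The other classes had different shares too. Lyve1/Folr2/Timd4 cells were 22.4% of C1q macrophages in sham and 22.6% in IR, interferon-signature cells 20.04% and 1.35%, Lpl/Gdf15 cells 2.55% and 32.1%, and cells below the MHC class II cut with no other signature 9.62% and 17.99%. The single criterion that kept most otherwise eligible cells out differed as well. In sham it was the interferon limit (474 cells), and in IR the MHC class II cut (186 cells) followed by the Lpl/Gdf15 limit (162 cells).

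The share in IR depended on the range of genes per cell. Sham members had a median of 4322 UMIs and 1457 genes, IR members of 7734 UMIs and 2293.5 genes, and 4.65% of sham members but 33.2% of IR members had more than 2500 genes. With an upper limit of 2500 genes the shares were 40.3% and 27.6%. With the rule applied to barcodes thinned to 1500 UMIs the IR share was 15.2%. The sham share was the higher one under each of these settings.

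**Figure D1:**
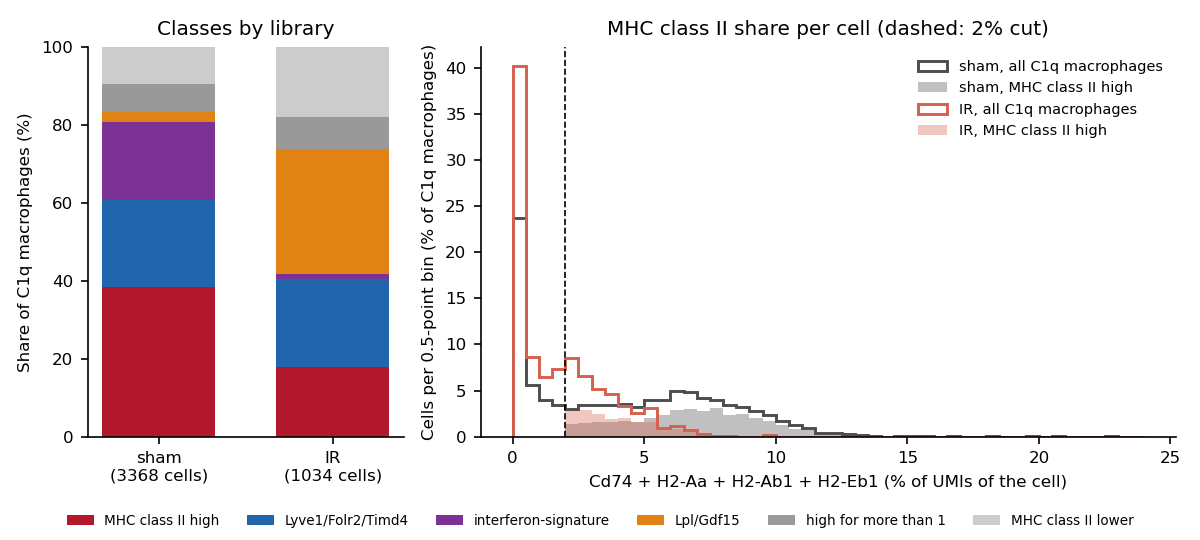
Left, classes of C1q macrophages as a percentage of all C1q macrophages in the sham (3368 cells) and IR (1034 cells) libraries. Right, histogram of the percentage of each cell's UMIs from Cd74, H2-Aa, H2-Ab1 and H2-Eb1, in bins of 0.5 percentage points and as a percentage of C1q macrophages of the library (lines, all C1q macrophages; filled, MHC class II high cells), with the 2% cut dashed. MHC class II high cells fill 38.3% of the sham and 17.8% of the IR bar, and the IR cells lie closer to the cut.

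Class II RNA was a smaller share of a member's UMIs in the IR library, also within the range that the rule allows. The total behind this share was larger in IR, at a median of 4322 UMIs per member in sham and 7734 in IR. A smaller share therefore need not mean fewer class II UMIs per cell. Summed over the 4 genes, class II was 65806 CPM of 6067773 UMIs over 1291 members in sham. In IR it was 39236 CPM of 1417182 UMIs over 184 members, so class II UMIs per cell were close. The 4 genes together made up a median of 6.93% of a member's UMIs in sham (quartiles 5.06 and 8.65, range 2.003 to 22.7) and 3.73% in IR (2.75 and 4.85, range 2.004 to 9.89). In sham 3.64% of members lay between 2 and 2.5%, against 15.8% in IR, so the cut ran through the IR distribution and along the edge of the sham one. Just inside the cut, from 2 to 2.5%, were 47 sham cells (median 2.23%) and 29 IR cells (2.25%), and just outside, from 1.5 to 2%, were 31 (1.79%) and 25 (1.71%). The difference was not particular to the members. All C1q macrophages had medians of 3.97% and 1.08%, conventional dendritic cells 6.69% and 4.51%, and B cells 2.76% and 1.73%, in sham and IR.

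Summed over members, Cd74 was 30545 UMIs per 1e+06 UMIs (CPM) in sham and 19033 CPM in IR, H2-Aa 11546 and 6316 CPM, H2-Ab1 11878 and 6189.7 CPM, and H2-Eb1 11837 and 7697 CPM. As a share of all UMIs, all 4 were lower in IR by less than 2-fold, and all are bounded from below by the rule.

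The label was checked against markers that the rule did not use. Csf1r, the receptor for macrophage colony-stimulating factor, was 774 CPM in sham and 687 CPM in IR members. Adgre1, which encodes F4/80, was 282 and 195 CPM, Fcgr1 342 and 234 CPM, and Cd68 489 and 478 CPM. The dendritic-cell genes Flt3 and Zbtb46 stayed below 5 CPM in both libraries and Cd209a was 17.0 and 2.12 CPM, against 1339 and 939 CPM in conventional dendritic cells, which were picked by these and a further gene. The other 3 definers on that list, Clec9a, Xcr1 and Ccr7, stayed below 2 CPM. Clec10a and Itgax, the remaining genes of the list, were higher in IR members, at 33.1 and 127 CPM (log2 ratio 1.94) and 10.4 and 35.3 CPM (1.76). In B cells Clec10a was 8.98 and 5.07 CPM and Itgax 6.28 and 5.40 CPM. All 8 genes of the list summed to 64.6 and 171 CPM, with 1 gene at 0 in sham (Xcr1) and 2 in IR (Clec9a and Ccr7), and the part of dendritic cells in the results was not tested.

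Markers of other cells were not equal between the libraries. In members, 5 neutrophil genes summed to 52.2 CPM in sham and 538 CPM in IR and 6 monocyte genes to 213 and 489 CPM, while 4 mural genes summed to 250.2 and 15.5 CPM and 4 hemoglobin genes to 626 and 125 CPM. With the rule on barcodes thinned to 1500 UMIs the hemoglobin genes turned, with log2 ratios of 1.80 for Hba-a1, 1.93 for Hba-a2, 1.51 for Hbb-bs and 1.26 for Hbb-bt. Endothelial genes summed to 167 and 68.4 CPM and cardiomyocyte genes to 102 and 36.7 CPM. No defining gene of the neutrophil or monocyte lists was at 0 in either library. All but 16 of the 184 IR members had an S100a8 or S100a9 UMI, against 147 of 1291 in sham. The median share of these genes was 0.0392% in IR members and 0.0611% in IR B cells, which should not express them. IR members had more UMIs (median 7734) than IR B cells (3528), so the lower share in members need not mean fewer such UMIs per cell. Gene by gene, 76 of the genes higher in IR members (13.4%) were at or below the number of UMIs per cell in IR B cells, and 131 (23.1%) were also higher in B cells by the same criterion. Of the genes lower in IR, 151 (38.4%) were at or below B cells in sham and 101 (25.7%) were also lower in B cells. B cells had no limit on neutrophil, fibroblast or monocyte genes. In them the 5 neutrophil genes summed to 452 CPM in sham and 6883 CPM in IR. Their summed levels may therefore hold RNA of other cells beside free RNA. The part that free or foreign RNA has in the results was not tested. The libraries had 30 barcode sequences in common, of which 4 belonged to a member in either library and 0 to a member in both.

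The comparison between conditions asked which genes differ in MHC class II high macrophages after IR. A gene was compared when it had at least 50 UMIs over the members of both libraries, and was called higher or lower when the ratio of summed CPM was 2-fold or more and its 95% interval on the log2 scale did not include 0. Of 7925 genes compared, 568 were higher in IR (7.17%) and 393 were lower (4.96%), and the median log2 ratio of all compared genes was 0.15. With ratios centred on that median, 408 were higher and 530 lower, so the split between directions depends on the scaling. In the members with 3 to 6% class II UMIs, chosen to bring the libraries to a like class II level (365 sham and 107 IR cells, medians 4.65% and 4.11%), 274 of 5166 genes were higher and 317 lower. Those ratios were not centred, so the split turned against the 568 and 393 of all members.

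Interferon-induced genes were lower as a group. Of 19 genes of the interferon response, 15 were lower in IR and 0 higher (median log2 ratio −1.83, against 0.15 over all genes). Isg15, Ifit2 and Ifit3 limit membership, and without them 12 of 16 were lower (median −1.78). The interferon limit alone left out 474 otherwise eligible cells in sham and 4 in IR, so the levels below are those of cells under that limit.

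Irf7, the transcription factor that amplifies type I interferon, was 173 CPM in sham (interval 163 to 184) and 26.1 CPM in IR (18.4 to 36.0), a log2 ratio of −2.73 (−3.24 to −2.26). Bst2, which tethers enveloped virus at the cell surface, was 1090.0 CPM and 191 CPM, a log2 ratio of −2.51 (−2.69 to −2.34). Ifitm3, which blocks virus entry, was 3639 and 1111 CPM (−1.71) and Ly6e 902 and 254 CPM (−1.83). These genes were lower in B cells too, where Irf7 was 306 CPM in sham and 38.8 CPM in IR and Bst2 653 and 89.2 CPM. Ifitm3 and Ly6e differed less there, at 1118 and 655 CPM and at 2566 and 1670 CPM. When each cell was thinned to 1000 UMIs, Bst2 was detected in 51.7% of sham and 17.6% of IR members, against 41.3% and 4.22% of B cells (median depths 4322 and 7734 UMIs in members, 2345 and 3528 in B cells). At a like class II level the log2 ratio of Irf7 was −4.60 and that of Bst2 −2.93.

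Further interferon-induced genes were among the 15 lower genes ranked first. Ifi27l2a was 4255 CPM in sham and 1079 CPM in IR (log2 ratio −1.98), and Rtp4, Xaf1 and Phf11b had log2 ratios of −2.27, −2.23 and −2.24. H2-T23, a nonclassical class I molecule, was 587 and 115 CPM (−2.35), and Psmb9, a subunit of the immunoproteasome that makes class I peptides, 157 and 38.1 CPM (−2.05). Aif1, which encodes the macrophage protein IBA1, was 782 and 241 CPM (−1.70) and Cd72 312 and 97.4 CPM (−1.68). Neither belongs to the interferon list. B cells held Aif1 at 19.1 CPM or less, but Cd72 at 133 CPM in sham and 87.5 CPM in IR. Both were also lower in Lyve1/Folr2/Timd4, class II lower and Lpl/Gdf15 cells (Aif1 −2.04, −1.69 and −1.28, Cd72 −2.89, −2.84 and −1.04). Fxyd2, a subunit that modulates the sodium pump, was 160.2 and 39.5 CPM (−2.02), with 2.09 CPM or less in B cells. The smooth muscle genes Tagln (164 and 4.94 CPM) and Acta2 (162 and 8.47 CPM) had the largest ratios and are markers of mural cells, whose RNA was also lower in B cells (Acta2 169.9 and 14.5 CPM).

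**Figure D2:**
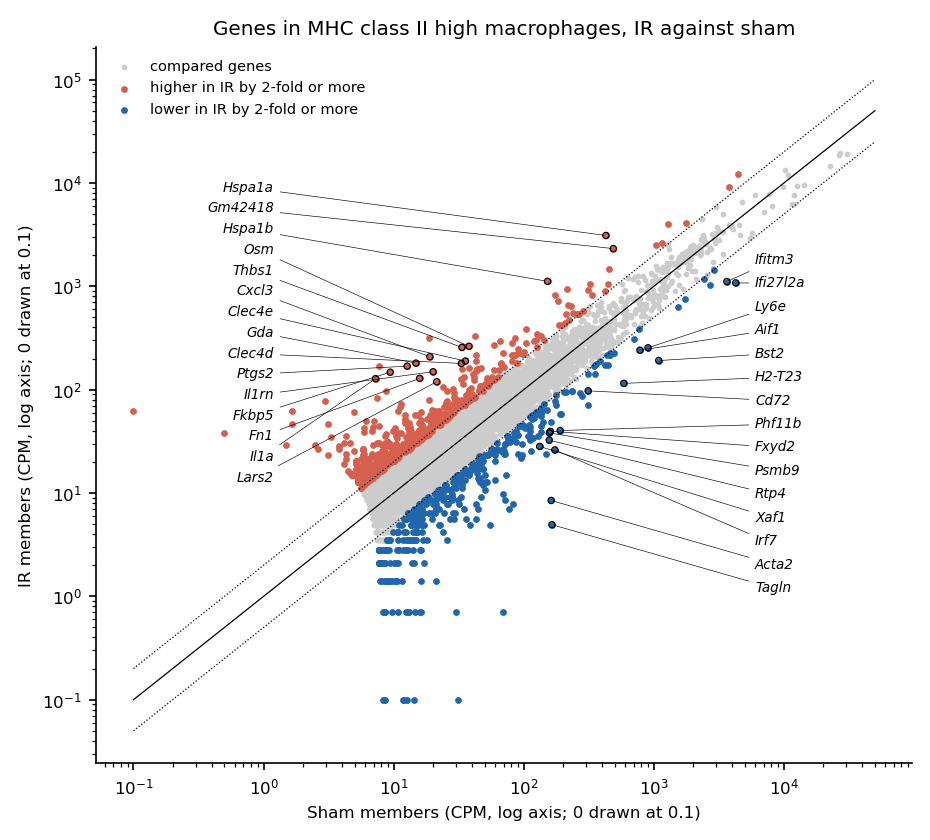
Level of each compared gene in MHC class II high macrophages of the sham (x axis) and IR (y axis) libraries, in CPM on log axes with 0 drawn at 0.1. The solid line marks equal levels, dotted lines 2-fold differences, colours the 568 higher and 393 lower genes, and circles the named genes, with Hspa1a at 427 and 3101 CPM and Irf7 at 173 and 26.1 CPM.

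The machinery around MHC class II was less uniform than the class II genes themselves. Of 16 pathway genes outside the rule that could be compared, 2 were lower, 0 higher and 14 in neither group, with a median log2 ratio of −0.29 against 0.15 over all genes. Ciita was 56.4 CPM in sham (50.5 to 62.7) and 26.1 CPM in IR (18.4 to 36.0), a log2 ratio of −1.11 (−1.64 to −0.62). Unc93b1, which escorts nucleic-acid-sensing Toll-like receptors to endosomes, was 457 and 217 CPM (−1.07). The pair that loads peptide stood just under the 2-fold line. H2-DMa was 814 CPM in sham and 442 CPM in IR (−0.88, −1.004 to −0.76), and H2-DMb1, whose promoter is shown above, 779 and 413 CPM (−0.92, −1.04 to −0.79).

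The endosomal enzymes of the pathway had ratios on both sides of 0. Ctss, the main protease of the invariant chain in antigen-presenting cells, was 1947 CPM in sham and 1394 CPM in IR (−0.48) and Ifi30, the thiol reductase of the endosome, 368 and 243 CPM (−0.60). Ctsb was 1059 and 1463 CPM (0.47), Ctsl 177 and 243 CPM (0.46) and Lgmn 657 and 784 CPM (0.25). None of these 5 reached 2-fold. March1, a ubiquitin ligase that removes class II from the surface, was 44.8 and 65.6 CPM (0.55).

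These ratios moved with the class II level of the cells compared. In members with 3 to 6% class II UMIs, H2-DMa had a log2 ratio of −0.40 (−0.58 to −0.23), H2-DMb1 of −0.23 and Ciita of −0.43 (−1.21 to 0.30), and 1 pathway gene was lower. With at most 2500 genes per cell, 5 were lower, and the log2 ratios were −1.05, −1.20 and −2.18. Among members of 1 library thinned to 1000 UMIs, H2-DMa and H2-DMb1 followed the class II UMIs of the cell more than other listed genes outside the rule did, with a Spearman rho of 0.24 and 0.25 over 1273 sham cells and of 0.34 and 0.20 over 176 IR cells. Cells of a library share its depth and free RNA, and these weak values are given as a description.

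Costimulatory and checkpoint genes were mostly within 2-fold. Of 11 compared, 2 were higher, 1 lower and 8 in neither group (median 0.25). Cd83, which holds MHC class II and CD86 at the cell surface, was 960.3 CPM in sham and 1082 CPM in IR (log2 ratio 0.17, 0.09 to 0.25). Cd86, a ligand of CD28, was 248.7 and 369.7 CPM (0.57). The genes past 2-fold were low in level. Cd274, which encodes PD-L1, was 5.27 and 12.7 CPM and below B cells in both libraries, Havcr2 7.42 and 16.9 CPM, and Lgals9 113 and 55.7 CPM.

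**Figure D3:**
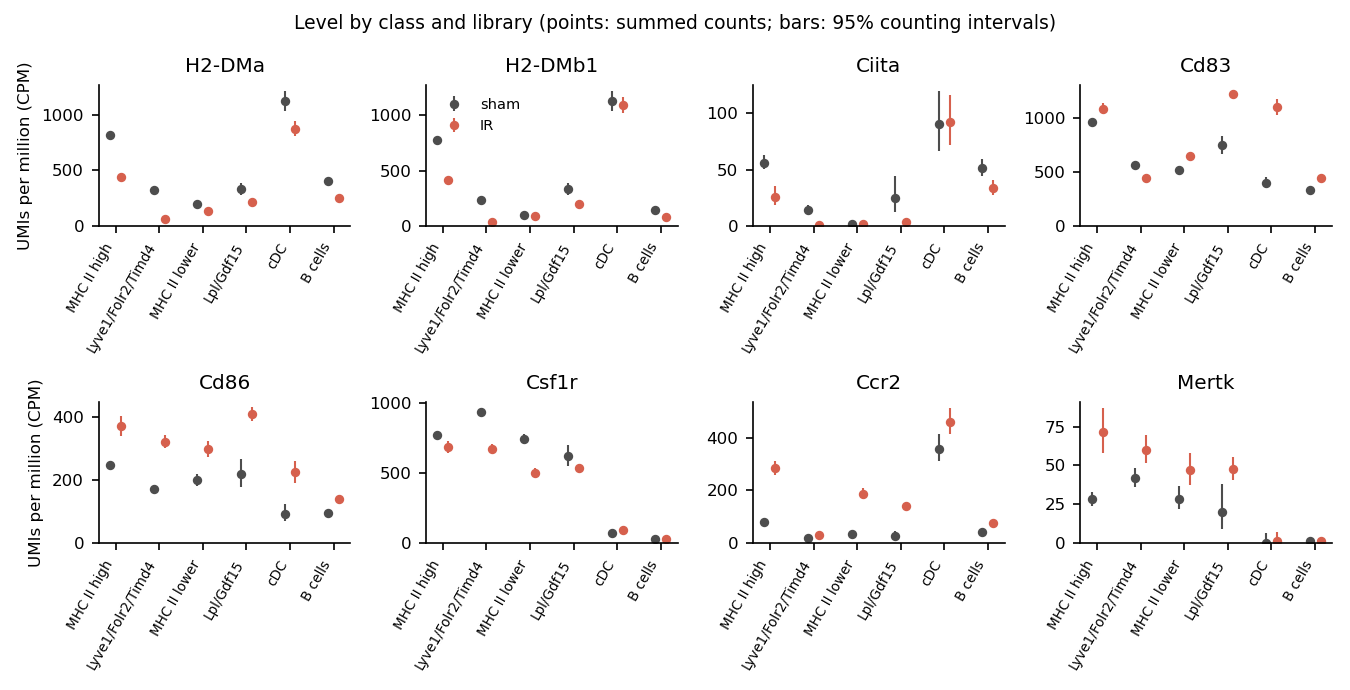
Level of 8 genes in CPM by class and library (grey, sham; red, IR), as points for the summed counts with 95% Poisson intervals that cover counting error only. In MHC class II high cells H2-DMa stands at 814 CPM in sham and 442 CPM in IR and Ccr2 at 81.2 and 284 CPM, while Mertk is at or near 0 in conventional dendritic cells (cDC) and B cells.

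Macrophage identity genes were mostly within 2-fold, with 3 of 23 higher and 1 lower (median 0.07). Mrc1, the mannose receptor CD206, was 314 CPM in sham and 910.3 CPM in IR (log2 ratio 1.53, 1.43 to 1.64), Trem2, a lipid-sensing receptor, 92.1 and 226 CPM (1.29), and Mertk, the receptor tyrosine kinase that binds apoptotic cells through GAS6, 28.2 and 71.3 CPM (1.34, 0.97 to 1.70). Spi1, which encodes the myeloid factor PU.1, had a log2 ratio of 0.01. Scavenger receptors of the efferocytosis list were higher as well. Msr1 was 65.3 and 294 CPM (2.17) and Cd36 105 and 382 CPM (1.87), while Abca1, the cholesterol exporter, was 97.6 and 29.6 CPM (−1.72). Over that list 3 of 14 genes were higher and 2 lower (median 0.37), Timd4 of the rule among the lower ones. B cells held Mrc1, Mertk, Trem2 and Msr1 at 22.3 CPM or less in both libraries.

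Chemokine levels ranged widely, and some were high in both libraries. Cxcl2, which attracts neutrophils, was 7677 CPM in sham and 7877 CPM in IR (0.04). Of 18 chemokines compared, 4 were higher and 0 lower (median 0.72). Ccl2, which recruits CCR2+ monocytes, was 1153 and 2646 CPM (1.198, 1.14 to 1.26) and Ccl7, a second CCR2 ligand, 442 and 1055 CPM (1.26). Both ratios were under 2-fold with at most 2500 genes per cell (0.59 and 0.58) and at a like class II level (0.59 and 0.26). Chemokine RNA was also higher in IR B cells, where Ccl2 was 45.5 CPM in sham and 1603 CPM in IR, Ccl7 27.2 and 369 CPM, and Cxcl2 80.8 and 3234 CPM. Cxcl3 was 19.0 and 208 CPM (3.46), with 599 CPM in IR B cells. Cxcl14 was 15.3 and 56.5 CPM (1.88), with 6.08 CPM or less in B cells.

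Of 13 cytokine genes 4 were higher and 1 lower (median 0.62). Il1a was 7.25 CPM in sham and 128 CPM in IR (4.14, 3.66 to 4.65), Osm 37.9 and 262 CPM (2.79) and Il6 6.92 and 43.7 CPM (2.66). In IR B cells they were 41.2, 106 and 30.7 CPM. Il1a was also higher in Lyve1/Folr2/Timd4, class II lower and Lpl/Gdf15 cells (4.26, 2.90 and 2.92). Il1rn, the antagonist of the IL-1 receptor, was 20.1 and 149 CPM (2.89), with 169 CPM in IR B cells. Il15, an interferon-responsive cytokine, was 28.0 and 9.17 CPM (−1.61). Il1b was nearly level, at 2683 and 2353 CPM (−0.19), against 115 and 1501 CPM in B cells, and Tnf was 363 and 658 CPM (0.86). Ptgs2, the inducible cyclooxygenase, was 12.7 and 169 CPM (3.73), with 269.5 CPM in IR B cells. Of 16 genes of TNF and NF-κB feedback 3 were higher, Plaur, Sod2 and Tnfaip2, and 0 lower (median 0.36).

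**Figure D4:**
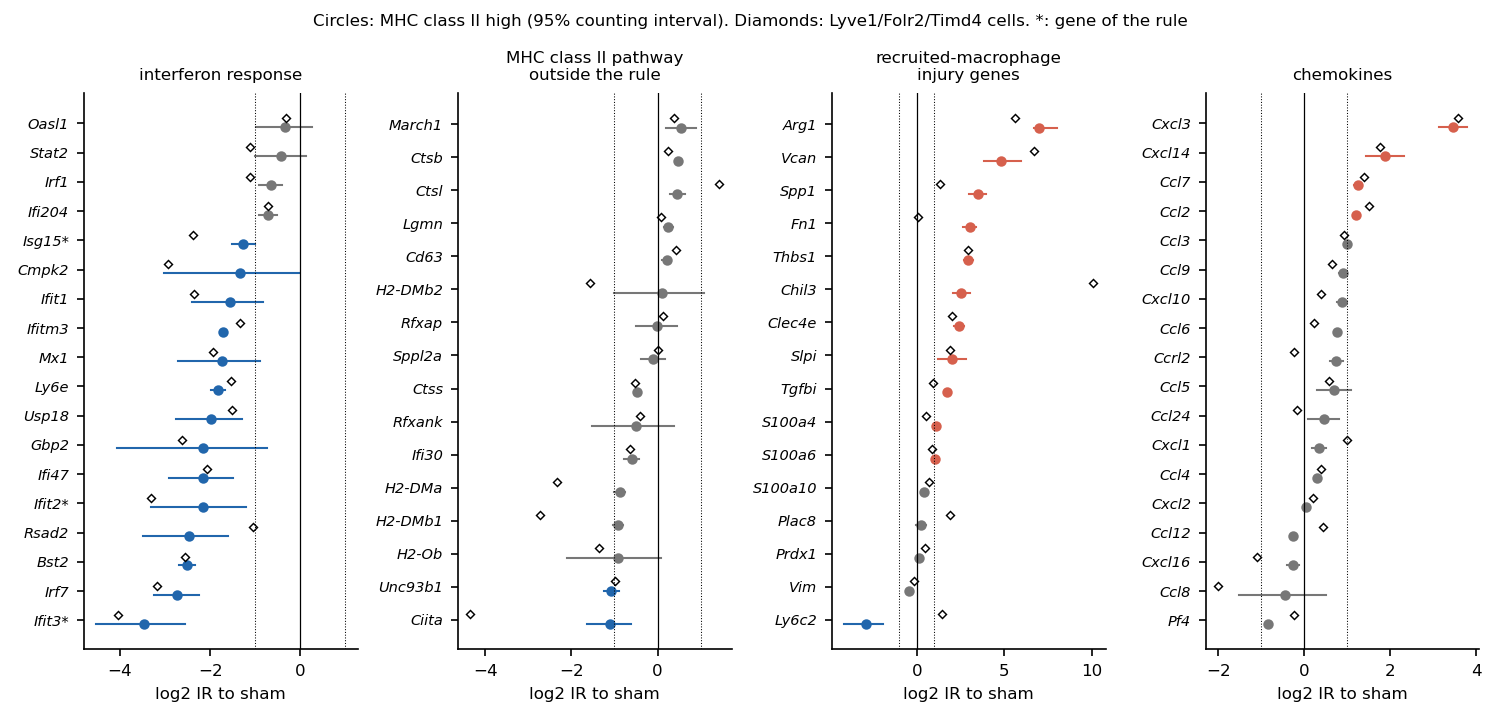
Log2 ratio of IR to sham CPM for compared genes of 4 lists, not all of which are drawn. Circles with lines are MHC class II high macrophages with 95% intervals (red, higher; blue, lower; grey, neither), open diamonds are Lyve1/Folr2/Timd4 cells, dotted lines mark 2-fold and asterisks genes of the rule. Interferon genes lie left of 0 (median over the whole list −1.83) and recruited-macrophage injury genes mostly right of it (median 1.85).

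Genes named for recruited macrophages of the injured heart were mostly higher in IR. Of 16 compared, 11 were higher and 1 lower (median 1.85). Arg1 had 0 UMIs in sham members and 62.8 CPM in IR, at least 127-fold higher with 3 UMIs over the library taken as the floor for a count of 0. Spp1, which encodes osteopontin, was 8.73 and 96.7 CPM (3.47), Fn1, fibronectin, 15.8 and 128 CPM (3.02), and Tgfbi, an adhesion protein of the matrix, 320.1 and 1043 CPM (1.70). For several of these the level in B cells was of the same order. IR B cells had 54.7 CPM of Arg1, 89.8 of Spp1, 98.3 of Fn1 and 565 of Thbs1, against 256 CPM of Thbs1 in IR members, but 96.3 of Tgfbi. Cells below the class II cut held far more of the same genes in IR, with Arg1 at 765 CPM, Spp1 at 850.1 CPM and Fn1 at 872 CPM. The IR to sham log2 ratio of Fn1 was −0.13 in those cells. It was 0.06 in Lyve1/Folr2/Timd4 cells and −1.61 in Lpl/Gdf15 cells.

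Genes of heat shock, iron and lipid handling gave further differences. Hspa1a and Hspa1b, the inducible HSP70 chaperones, were 427 and 3101 CPM (log2 ratio 2.86, 2.79 to 2.93) and 152 and 1116 CPM (2.87), with 91.2 and 79.0 CPM in IR B cells. Hspa1a was also higher in Lyve1/Folr2/Timd4, class II lower and Lpl/Gdf15 cells (2.32, 1.83 and 2.18). Over the heat shock list 2 of 12 genes were higher and 2 lower (median 0.27). After thinning, Hspa1a was detected in 24.2% of sham and 62.5% of IR members, against 2.17% and 4.72% of B cells. Of 13 heme and iron genes 7 were higher and 1 lower (median 1.08). Hmox1, which degrades heme, was 231 and 651 CPM (1.495), Cd163, the hemoglobin scavenger receptor, 85.5 and 215 CPM (1.33), and Slc7a11, the cystine transporter, 7.42 and 82.6 CPM (3.48), with 180 CPM in IR B cells. Of 17 lipid and lysosome genes 6 were higher and 2 lower (median 0.55), Lpl of the rule among them. Plin2, which coats lipid droplets, was 174 and 823 CPM (2.24) and Fabp5, a fatty acid carrier, 42.8 and 216 CPM (2.33).

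Smaller groups completed the comparison. Of 17 hypoxia and glycolysis genes 4 were higher, Hif1a, Slc2a1, Pkm and Ero1l, and 0 lower (median 0.68). Hif1a was 42.2 and 84.7 CPM, with 136 CPM in IR B cells. The lectin receptors Clec4d and Clec4e were 33.1 and 179 CPM (2.44) and 35.6 and 189 CPM (2.41), with 161 and 188 CPM in IR B cells. Gda, guanine deaminase, was 14.8 and 181 CPM (3.61), against 118 CPM there. Gm42418, which overlaps ribosomal RNA sequence, was 488 and 2314 CPM (2.25) and Lars2, a mitochondrial tRNA synthetase, 21.4 and 119 CPM (2.48), and both had similar levels in IR B cells (2745 and 110.1 CPM). The glucocorticoid-induced Fkbp5 was 9.39 and 147 CPM (3.97, 3.54 to 4.42), with 4 of 10 genes of its list higher and 1 lower (median 0.52). All 8 mitochondrially encoded genes had ratios above 0 and 4 were higher (median 1.08), beside a median mitochondrial share of 3.07% in sham and 5.58% in IR members, and 3 of these 4, mt-Nd2, mt-Co2 and mt-Atp6, were also higher in B cells. No complement gene of 10, C1qa, C1qb and C1qc of the rule among them, was called in either direction. The 7 outside the rule had a median of 0.43. Of 11 proliferation genes 2 were lower. Growth factors had 1 of 8 higher and 2 lower, and the integrated stress response 1 of 7 higher.

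The transcription factor of the study, Atf3, was 1281 CPM in sham and 1529 CPM in IR members (log2 ratio 0.26, 0.19 to 0.32). The immediate-early list held 1 higher gene of 19, Nr4a2 (median 0.14), and Fos and Egr1 were at −0.80 and −0.24. Of the study's interferon and apoptosis genes, Ifnb1 was 37.6 and 15.5 CPM (−1.28, −1.98 to −0.64), Ifih1 40.9 and 38.1 CPM (−0.10) and Apaf1 25.5 and 17.6 CPM (−0.53). Of 21 genes of nucleic-acid sensing and apoptosis, 3 were lower, with Ddx58 and Mavs beside Ifnb1, and 1 was higher, the survival gene Bcl2l1 (median 0.12). Over all fixed lists outside the rule, 60 of 290 compared genes were higher, 31 were lower and the median was 0.25.

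The study sorts cardiac macrophages by MerTK and CCR2, the receptor that draws monocytes from blood, and both mRNAs were sparse in these cells. After thinning to 1000 UMIs, Ccr2 was detected in 4.63% of sham members (59 of 1273) and 15.3% of IR members (27 of 176, exact interval 10.4 to 21.5), and Mertk in 3.61% (46 cells) and 6.25% (11 cells, 3.16 to 10.9). Without thinning the shares were 12.7% and 28.3% for Ccr2 and 11.8% and 33.7% for Mertk. B cells gave 0.801% and 1.85% for Ccr2, and for Mertk 0 of 874 cells, which allows a share of up to 0.343% when 3 cells are taken as the limit, and 0.169% (median depths 4322 and 7734 UMIs in members, 2345 and 3528 in B cells). For Ccr2, Lyve1/Folr2/Timd4 cells gave 1.47% and 2.59% and class II lower cells 3.24% and 9.39%. For Mertk the same classes gave 4.01% and 4.74%, and 1.29% and 8.84%. The Mertk share of members in sham and in IR had overlapping intervals. These thinned shares rest on a random draw of UMIs and moved when the draw changed.

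Summed Ccr2 was 81.2 CPM in sham and 284 CPM in IR members (log2 ratio 1.80, 1.61 to 1.997). Ccr1 was 42.7 and 191 CPM (2.16), and 3 of 5 chemokine receptors were higher and 0 lower (median 1.05). In IR B cells Ccr1 was 152 CPM and Ccr2 77.0 CPM. The higher Ccr2 level in IR was not limited to members: it was 37.2 and 187 CPM in class II lower cells and 26.8 and 140.2 CPM in Lpl/Gdf15 cells. The Ccr2 result depended on which IR cells were used. With at most 2500 genes per cell the IR share was 6.96% and the log2 ratio 1.04. In members without an S100a8 or S100a9 UMI, of which only 16 were in IR, the ratio was −1.18 (−3.47 to 0.37), while that of Mertk was 2.34 and that of Irf7 −3.87. Il1rn, Clec4e and Fabp5 also had ratios below 0 there (−0.73, −1.57 and −1.73). Their intervals were wide and included 0 (−6.05 to 1.78, −6.88 to 0.93 and −7.04 to 0.76). At a like class II level the Ccr2 ratio was 2.30.

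**Figure D5:**
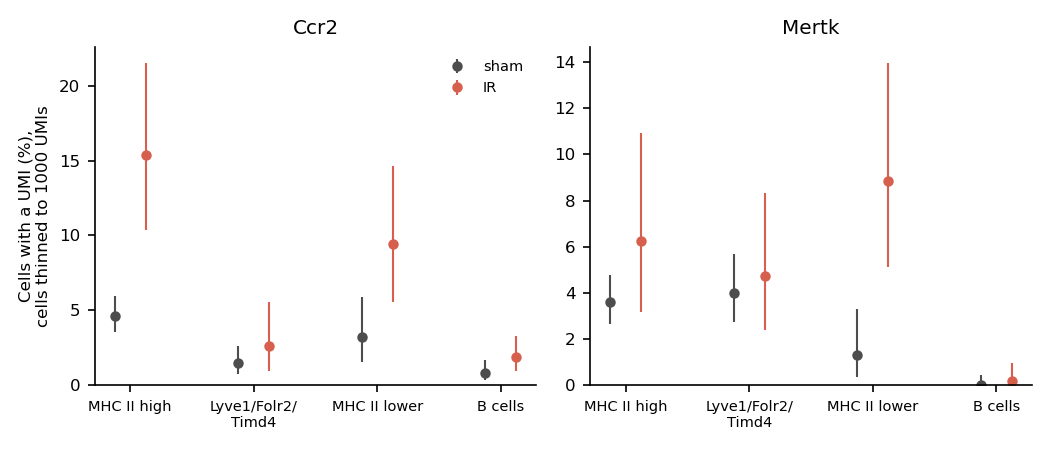
Percentage of cells with a Ccr2 (left) or Mertk (right) UMI after each cell was thinned to 1000 UMIs, by class and library (grey, sham; red, IR), with exact binomial 95% intervals that cover counting error only. In MHC class II high cells Ccr2 was found in 4.63% (sham) and 15.3% (IR), and B cells give a rough reference for free RNA.

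Members with Ccr2 UMIs and no Mertk UMI (144 sham, 35 IR) were set beside those with Mertk and no Ccr2 UMI (132 sham, 45 IR). With at least 30 UMIs per gene, 1.54% of 4744 genes were higher in Ccr2-only cells in sham and 2.59% lower, and 5.83% and 5.59% of 2986 genes in IR. Of 215 listed genes compared in both libraries, 7 were higher in Ccr2-only cells in sham and 36 in IR, and 7 and 22 were lower. Higher in both were 7 (3.26%: Fn1, Lgals3, Osm, Plac8, S100a4, S100a6 and Traf1) and lower in both 2 (0.93%: Cd63 and Hspb1), against 22 (0.753%) and 9 (0.308%) of all 2920 genes compared in both. The calcium-binding S100a4 was 811 CPM in Ccr2-only and 149 CPM in Mertk-only cells in sham (log2 ratio 2.44, 2.14 to 2.76) and 1314 and 167 CPM in IR (2.97). Plac8, a monocyte gene, was 203 and 2.98 CPM in sham, and in IR it was 315 and 8.22 CPM. Class II shares were close, with medians of 7.53% in Ccr2-only and 6.36% in Mertk-only cells in sham and 4.10% and 3.59% in IR. H2-DMb1 was 1037 and 685 CPM in sham (0.60), while in IR it was 758 and 252 CPM (1.59). A missing UMI does not show that a cell lacks the mRNA, and deeper cells are more likely to hold either.

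Against Lyve1/Folr2/Timd4 macrophages of the same library the members had more H2-DMa and H2-DMb1 mRNA in both libraries. Because the rule chose the cells, these values are a description. Of 8650 genes compared with Lyve1/Folr2/Timd4 cells in sham, 1.92% were higher in members and 2.88% lower, and of 6769 genes in IR 2.81% and 4.92%. Of 16 pathway genes outside the rule 5 were higher in sham and 0 lower, and of 12 in IR 2 and 1 (medians 0.11 and −0.05, against −0.12 and −0.11 over all genes). Chemokines went both ways, with 4 of 18 higher and 6 lower in sham and 5 and 6 of 18 in IR. H2-DMa was 814 CPM in members and 327 CPM in Lyve1/Folr2/Timd4 cells of sham (log2 ratio 1.31) and 442 and 65.1 CPM in IR (2.76). H2-DMb1 was 779 and 236 CPM in sham (1.72), while in IR it was 413 and 35.9 CPM (3.52), and Ciita 56.4 and 14.3 CPM in sham (1.98). In Lyve1/Folr2/Timd4 cells the IR to sham log2 ratios of H2-DMa and H2-DMb1 were −2.33 and −2.72, against −0.88 and −0.92 in members. The members' ratio is limited by the class II cut of the rule, and the difference was not tested.

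Outside the pathway, Il1b was the gene with the clearest higher level in members, 2683 CPM against 437 CPM in sham (2.62, 2.55 to 2.69) and 2353 against 623 CPM in IR (1.92). Tnip3, an A20-binding inhibitor of NF-κB, was 209 and 36.4 CPM in sham (2.52), Rgs1, which dampens chemokine receptors, 490.1 and 108 CPM (2.18) and Ccl4 3059 and 1192 CPM (1.36). These 4 were on the same side in IR. Lower in members were the secreted lectin Fcna (3.96 and 175 CPM), the complement receptor Vsig4 (2.31 and 110.0 CPM), the leukotriene synthase Ltc4s (34.9 and 596 CPM), and the chemokines Ccl8 (10.5 and 195 CPM) and Ccl24 (44.2 and 334 CPM). Retnla, an alternative activation marker, was 276 and 1492 CPM in sham (−2.43), and F13a1, coagulation factor XIII, 213 and 1076 CPM (−2.33). F13a1 was higher in IR in both classes, from 213 to 937 CPM in members and to 2418 CPM in Lyve1/Folr2/Timd4 cells.

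Cells below the class II cut held more of the genes named for recruited macrophages than members did. Of 8216 genes compared in sham 0.645% were higher in members and 4.61% lower, and of 5895 in IR 1.24% and 3.21%. Of the recruited-macrophage injury genes 12 of 16 were lower in members in sham and 15 of 18 in IR, and 0 were higher in either. Fn1 was 15.8 CPM in members and 954 CPM in the class II lower cells of sham, Plac8 72.3 and 486 CPM, and Ly6c2, the Ly6C antigen of classical monocytes, 42.7 and 301 CPM. Not every monocyte gene followed: Ccr2 was 81.2 CPM in members and 37.2 CPM below the cut in sham, and 284 against 187 CPM in IR. The 6 monocyte genes summed in sham to 213 CPM in members against 943 CPM below the cut, and in IR to 489 against 1656 CPM. For the 4 nonclassical monocyte genes the sums were 336 against 500.5 CPM in sham and 364 against 347 CPM in IR. H2-DMa was 814 and 201 CPM and H2-DMb1 779 and 103 CPM. Csf1r was 774 and 743 CPM and Mrc1 314 and 307 CPM, so these macrophage genes were level between the classes in sham.

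In sham, interferon-signature cells stood within 2-fold of members for H2-DMa, H2-DMb1 and Ciita, while Lpl/Gdf15 cells held less of all 3. Of 8470 genes compared with interferon-signature cells in sham 1.76% were higher in members and 4.52% lower, with H2-DMa at 814 CPM in members and 585 CPM in those cells (0.48), Ciita at 56.4 and 35.8 CPM (0.65), and Irf7 at 173 and 739.9 CPM (−2.09). Of 7505 genes compared with Lpl/Gdf15 cells in sham 1.6% were higher and 4.02% lower, and of 6889 in IR 2.13% and 2.74%. In sham H2-DMa was 814 CPM in members and 329 CPM in Lpl/Gdf15 cells (1.31), H2-DMb1 779 and 331 CPM (1.23) and Ciita 56.4 and 24.6 CPM (1.196, 0.34 to 2.21). H2-Eb1, which the rule uses, was 11837 CPM in members against 4678 CPM in Lpl/Gdf15 cells in sham, and 7697 against 3665 CPM in IR. In IR, where Lpl/Gdf15 cells were the largest class, H2-DMa was 442 CPM in members and 212 CPM in them (1.06), H2-DMb1 413 and 201 CPM (1.04) and Ciita 26.1 and 3.595 CPM. Hmox1 was lower in members, at 651 and 2244 CPM (−1.78), as was Cd36, at 382 and 1139 CPM (−1.57). Fabp5 went the other way, at 216 and 31.8 CPM (2.77). Il1b was level between them, at 2353 and 2362 CPM (−0.01).

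Conventional dendritic cells (61 in sham, 50 in IR) were the other class II rich cells, chosen by the same 2% class II cut, under 0.1% C1q UMIs and at least 2 UMIs of Flt3, Cd209a, Clec9a and Zbtb46. Of 7559 genes compared in sham 9.67% were higher in members and 7.88% lower, and of 4720 in IR 12.6% and 8.03%. The class II share was alike in sham, at medians of 6.93% in members and 6.69% in dendritic cells. The pathway around it was split, with 4 of 17 genes higher in members and 5 lower in sham and 4 and 5 of 15 in IR. The lysosomal genes Ctsl, Ctsb, Lgmn and Cd63 were higher in members, with Lgmn, which encodes legumain, at 657 and 81.2 CPM in sham and Ctsb at 1059 and 231 CPM. Ifi30 was lower (368 and 1023 CPM), as were H2-Oa (2.80 and 135 CPM) and H2-Ob (12.03 and 84.9 CPM), the subunits of H2-O that restrain H2-DM. H2-DMb2 was 7.25 and 148 CPM, but it is a near-identical copy of H2-DMb1, and counting may split their reads. H2-DMb1 was 779 CPM in members and 1126 CPM in dendritic cells of sham (−0.53) and 413 and 1092 CPM in IR (−1.40). Ciita was 56.4 and 90.5 CPM in sham (−0.68), while in IR it was 26.1 and 92.4 CPM (−1.82), so both were lower in members by the 2-fold criterion in IR alone, and the difference between libraries was not tested.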

How the data were processed

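The files hold counts: per the file headers and labels, the authors aligned 10× Genomics 3′ v2 reads to mm10 with Cell Ranger (matrix header version 3.1.0) and deposited UMI counts for every gene in each barcode. The 4 samples listed for each condition share 1 matrix with no sample names, so each condition was 1 library, without tests. The sham library held 11620 barcodes and 58653308 UMIs and the IR library 8539 and 75033226. Here counts were summed over members (Python 3.11.15, numpy 2.4.6, pandas 2.3.3), scaled to CPM and compared as ratios with exact conditional-binomial 95% intervals, or exact Poisson and Clopper–Pearson intervals for levels and shares. These cover counting error only. Calls needed 50 UMIs, 2-fold and an interval off 0, and a count of 0 was set to 3 UMIs. The procedure was tested on simulated data. Members, lists and markers were chosen with earlier results of these data known. Named genes were the 15 higher and 15 lower genes (12 and 12 against Lyve1/Folr2/Timd4 cells) with at least 100 CPM in the higher group and the largest interval bound nearest to 0, leaving out rule, mitochondrial and hemoglobin genes, plus genes of the fixed lists. B cells (at least 3 Cd79a UMIs, no C1q UMI, no limit on neutrophil or fibroblast genes) gave a rough reference for free RNA. Their summed levels may also hold RNA of other cells. Dendritic cells had under 0.1% C1q UMIs. Doublets were not removed, except as an alternative (highest simulated scores at 0.8% per 1000 barcodes). Promoters came from RefSeq (GRCm38.p6). Some genes counted in the lists are not reported by name here.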

Additional observations from a re-analysis of the deposited data

Results flagged for a closer look

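Ly6c2 and Aqp1 had IR to sham ratios of opposite direction in MHC class II high macrophages and in Lyve1/Folr2/Timd4 cells, and the difference was not tested. Ly6c2, the Ly6C antigen of classical monocytes, had a log2 ratio of −2.92 (−4.15 to −1.92) in the former, from 42.7 to 5.65 CPM, and of 1.42 (0.58 to 2.29) in the latter, from 4.47 to 11.96 CPM. In B cells it was 509.8 and 32.4 CPM. Aqp1, a water channel, had a log2 ratio of −1.93 (−4.26 to −0.30), from 8.08 to 2.12 CPM, and of 1.56 (1.13 to 1.998), from 15.6 to 46.1 CPM, with 22.1 and 15.9 CPM in B cells.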

How the results depend on the processing

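Of 128 counts and shares computed under the alternatives, 108 stayed within 1.5 times or within their counting interval and 20 moved. A reversal was not defined for counts and shares. The split of called genes did turn, from 568 higher and 393 lower to 408 and 530 with centred ratios. With 3 to 6% class II UMIs it was 274 and 317. Of 1428 values of named genes 1046 stayed, 359 moved and 23 reversed. The share of C1q macrophages was 40.3% in sham and 27.6% in IR with at most 2500 genes, 35.5% and 12.1% with at least 3% class II UMIs, and 15.2% in IR with the rule on thinned barcodes. The Mertk share in sham was 2.64% with at most 2500 genes and with the thinned rule and 2.21% with at least 0.4% C1q, and the Ccr2 share in IR was 6.96% with at most 2500 genes. A change of members also changed the random draw of UMIs. With at least 0.4% C1q, 28 of 1268 sham members had Mertk and 75 had Ccr2. As reported, these were 46 and 59 of 1273, so such small shares moved with the draw. Pathway genes lower in IR numbered 5 with at most 2500 genes and with centred ratios, 4 with the mean of per-cell CPM, and 1 with at least 3% class II UMIs. Without the limit of 50 UMIs 937 genes were higher.

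Cells with 3 to 6% class II UMIs, and cells without S100a8 or S100a9 UMIs, were chosen after seeing the data. The former gave 274 higher and 317 lower genes and 1 lower pathway gene. The latter left 16 IR cells, with 164 lower genes, 4 lower pathway genes, and 36 higher and 18 lower genes of the other lists. The cause was not tested, but fewer cells give fewer UMIs and wider intervals. In them the log2 ratio was 0.60 for Actc1, −1.18 for Ccr2, 0.85 for Cd209a, −1.57 for Clec4e, 1.85 for Cmpk2, −1.73 for Fabp5, 1.504 for Gbp2, 0.018 for Ifit1, −0.73 for Il1rn, 1.64 for Kcnj8, 0.0027 for Ly6c2, 0.29 for Mx1, 0.90 for Myh11, 1.08 for Pecam1, 0.43 for Tnnt2 and −0.29 for Zbtb16. Those above 0 for Actc1, Cd209a, Cmpk2, Gbp2, Ifit1, Kcnj8, Ly6c2, Mx1, Myh11, Pecam1 and Tnnt2 rest on a count of 0 set to 3 UMIs and are no measured rise. The intervals of those below 0, for Ccr2, Clec4e, Fabp5, Il1rn and Zbtb16, included 0. Fabp4 was at 0.12 with at least 3% class II UMIs, 0.17 with the thinned rule and 1.99 without high doublet scores, and with the thinned rule Hba-a1, Hba-a2, Hbb-bs and Hbb-bt were at 1.80, 1.93, 1.51 and 1.26. No paired analysis was possible because the columns carry no replicate number, and with 1 matrix per condition no replicate was left out in turn.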
